A study of Mus musculus with 4 samples.

Results

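Corticosteroid receptors and the genes they control were read on 4 arrays of control tissue from area CA1 of the mouse hippocampus. The set was named by gene: the glucocorticoid receptor Nr3c1, the mineralocorticoid receptor Nr3c2, the enzyme Hsd11b1, and the target genes Fkbp5, Sgk1, Tsc22d3, Klf9, Zbtb16, Mt1 and Mt2. Of these 10 genes, 9 were found, on 11 of the 12488 probe sets, by the gene symbol in the platform's annotation, which named 8251 genes in all. No probe set with the symbol Nr3c2 was among them, so Nr3c2 was not analysed here.

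The tissue came from young male C57BL/6J mice, an inbred strain. All 4 samples were controls: an experimenter had handled the mice, which had no further treatment. Their RNA was extracted 1, 2, 4 or 6 h after other mice, not analysed here, had their last shock. Each hour had 1 sample on 1 array, so a difference between hours has no replicate check, and what belongs to the hour and what belongs to the single sample cannot be told apart. The number of mice behind each sample is not stated in the labels. Since every sample came from handled mice, no unhandled sample was analysed beside them, and the effect of handling itself was not measured. What can be asked is whether the target genes stood high or low together in any 1 sample.

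Corticosterone is the glucocorticoid hormone of mice and rises in the blood after stress, handling included, and with the daily rhythm. It binds Nr3c2 with high affinity and Nr3c1 with lower affinity, and CA1 neurons carry both receptors. The bound receptors enter the nucleus and raise or lower the transcription of their target genes, often through a palindromic DNA motif called the glucocorticoid response element. Fkbp5, Tsc22d3 and Sgk1 are among the targets most used as readouts of this hormone in brain.

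Values are the authors' scaled probe set intensities, called signals here. A signal can be compared between arrays for the same probe set but not between probe sets. For differences, signals below 36.8, the pooled 20th percentile, were raised to that floor. A trend over the hours was tested on the 7237 probe sets with a geometric mean signal of at least 116.4, the pooled 40th percentile. Tested were 10 of the 11 probe sets of the named genes. Against the median of the other 3 arrays, the middle of all tested probe sets lay between -0.03 and 0.02 log2 on each array. The 2 h array spread most, with an SD of 0.57 log2 across probe sets against 0.45 to 0.47 on the others. For Gapdh, a control for RNA quality and labelling, its signal at the 3' end over that at the 5' end was 1.08 against 3.62 to 4.10. Cell markers were present on all arrays: the neuronal gene Snap25 had a signal of 18884 ± 858 (SD, n = 4), and the summed signal of 5 CA1 pyramidal markers was between 9679.5 (2 h) and 12134.5.

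The target genes did not stand on one side together on any array. Against the median of the other 3 arrays, 5 of 7 target genes were higher at 1 h, where 49.6% of all tested genes were higher. At 2 h 5 of 7 were lower, beside 53.1% of all tested genes, and at 4 h 5 of 7 were lower, beside 48.8%. At 6 h 5 of 7 were higher, beside 52.3%. A gene with several probe sets is counted here by its brightest one. By this measure each gene is higher on its 2 highest arrays and lower on its 2 lowest, unless signals tie. The counts on the 4 arrays are therefore tied to each other, and a mirrored pair of counts is no separate result. The 5 at 1 and 2 h were not the same genes as the 5 at 4 and 6 h. Fkbp5 and Klf9 were the lower ones at 1 h and the higher ones at 2 h. Klf9 and Zbtb16 were the lower ones at 6 h and the higher ones at 4 h. These comparisons share arrays, so they are not independent of each other. With the mean of the other arrays as reference, each gene kept its side at 1 and 2 h. At 4 h Sgk1 alone was then lower (-0.34 log2), and the rest were higher, from 0.04 (Mt1) to 0.34 (Zbtb16). At 6 h Sgk1 turned lower (-0.01) and Zbtb16 higher (0.11). The direction at 4 h thus depends on the reference.

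**Figure D1:**
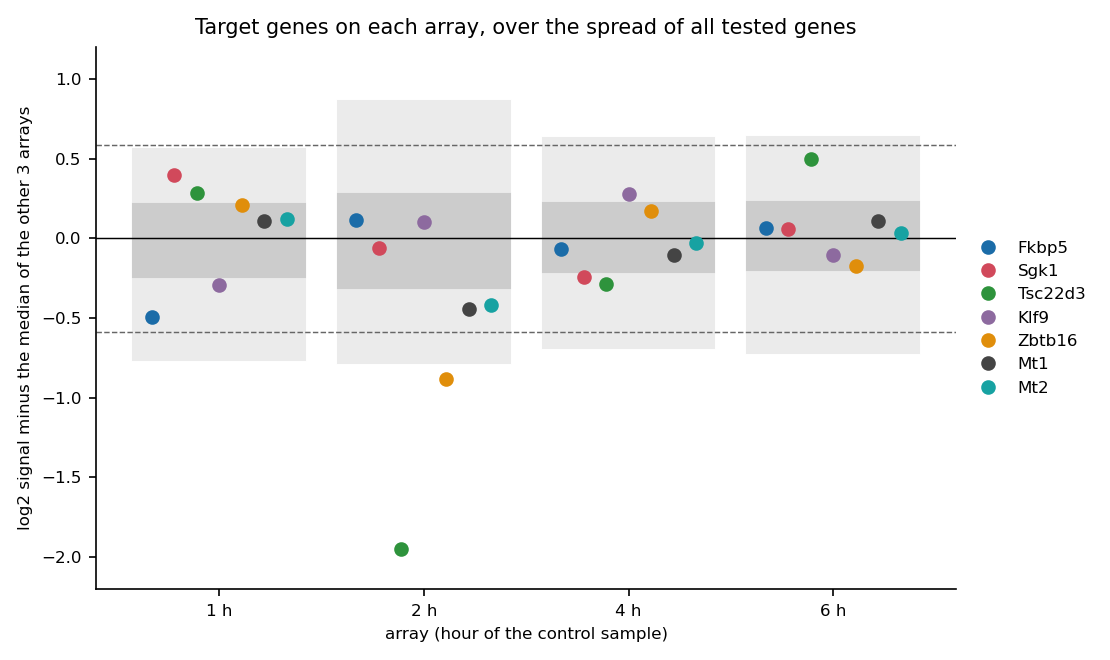
Each point is 1 target gene on 1 array, as log2 signal minus the median log2 signal of the other 3 arrays. The grey boxes run from the 5th to the 95th percentile (light) and from the 25th to the 75th (dark) of the 5546 tested genes, and dashed lines mark 1.5-fold. Only Tsc22d3 and Zbtb16 at 2 h pass a dashed line, and on each array points lie on both sides of 0.

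Counts of target probe sets past 1.5-fold were 0 to 2 in each direction on each array. With 9 probe sets, such counts are too small to be set apart from the shares of all tested probe sets. Of 9 tested probe sets of target genes, 2 were at least 1.5-fold lower at 2 h, where 10.8% of all tested probe sets were, and 0 were higher, where 11.7% were. At 1 h 1 was lower, beside 9.06%, and 0 were higher, beside 4.84%. At 4 h 1 was higher, beside 6.54%, and 0 were lower, beside 7.19%. At 6 h 0 were higher and 0 lower, beside 6.80% and 7.30%. The lower pair at 2 h were Tsc22d3 and the brighter probe set of Zbtb16. The single probe sets at 1 and 4 h were both the dimmer one of Zbtb16.

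Set against the 1 h array, the picture was as mixed. At 2 h 1 target probe set was at least 1.5-fold higher, beside 15.8% of all tested probe sets, and 2 were lower, beside 12.5%. At 4 h 1 was higher, beside 10.3%, and 0 were lower, beside 7.81%. At 6 h 1 was higher, beside 10.2%, and 0 were lower, beside 7.64%. The higher one was the dimmer Zbtb16 probe set at every hour, and the lower ones at 2 h were again Tsc22d3 and the brighter Zbtb16.

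The median of the 7 target genes was lowest on the 2 h array. It was 0.12 log2 at 1 h, -0.42 at 2 h, -0.07 at 4 h and 0.06 at 6 h, where the medians of all tested genes were -0.0046, -0.03, 0.01 and 0.02. The 2 h median was the value of Mt2 itself, with Mt1 next below it at -0.44. Both are in the brightest 10% of tested probe sets, whose median at 2 h was -0.14 log2. With the same 7 genes kept, the 2 h value was -0.39 without the 1 h array, -0.45 without the 4 h array and -0.39 without the 6 h array. Tsc22d3 falls under the filter on dim probe sets in each of those settings, and over the 6 genes left the values were -0.21, -0.34 and -0.25. After quantile normalization, where Tsc22d3 is also under the filter, it was -0.20. The other medians depended on the arrays they were set against. With the same 7 genes, the 1 h median was 0.05 without the 2 h array, 0.30 without the 4 h array and 0.31 without the 6 h array. The 4 h median turned to 0.18 without 1 h and 0.155 without 6 h, and was -0.08 without 2 h. The 6 h median turned to -0.03 without 2 h, and was 0.22 without 1 h and 0.22 without 4 h.

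No trend over the hours passed the test for any of these genes. By limma's slope test with Benjamini-Hochberg adjustment over 7237 probe sets, 0 probe sets (0%) were called, and each of the 10 probe sets of the named genes had an adjusted p of 0.9996. Before adjustment, p was under 0.05 for 196 probe sets in all, 2.71%, and for 1 of the 10, the dimmer Zbtb16. With 2 residual degrees of freedom the slopes are loosely bounded. For Fkbp5 the slope was 0.07 ± 0.06 log2 per hour (SE, 4 arrays; 95% interval -0.08 to 0.22) and for Sgk1 it was -0.06 ± 0.07 (-0.22 to 0.10). A slope fits a straight line, so it says little of a value that is high or low on 1 array alone.

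**Figure D2:**
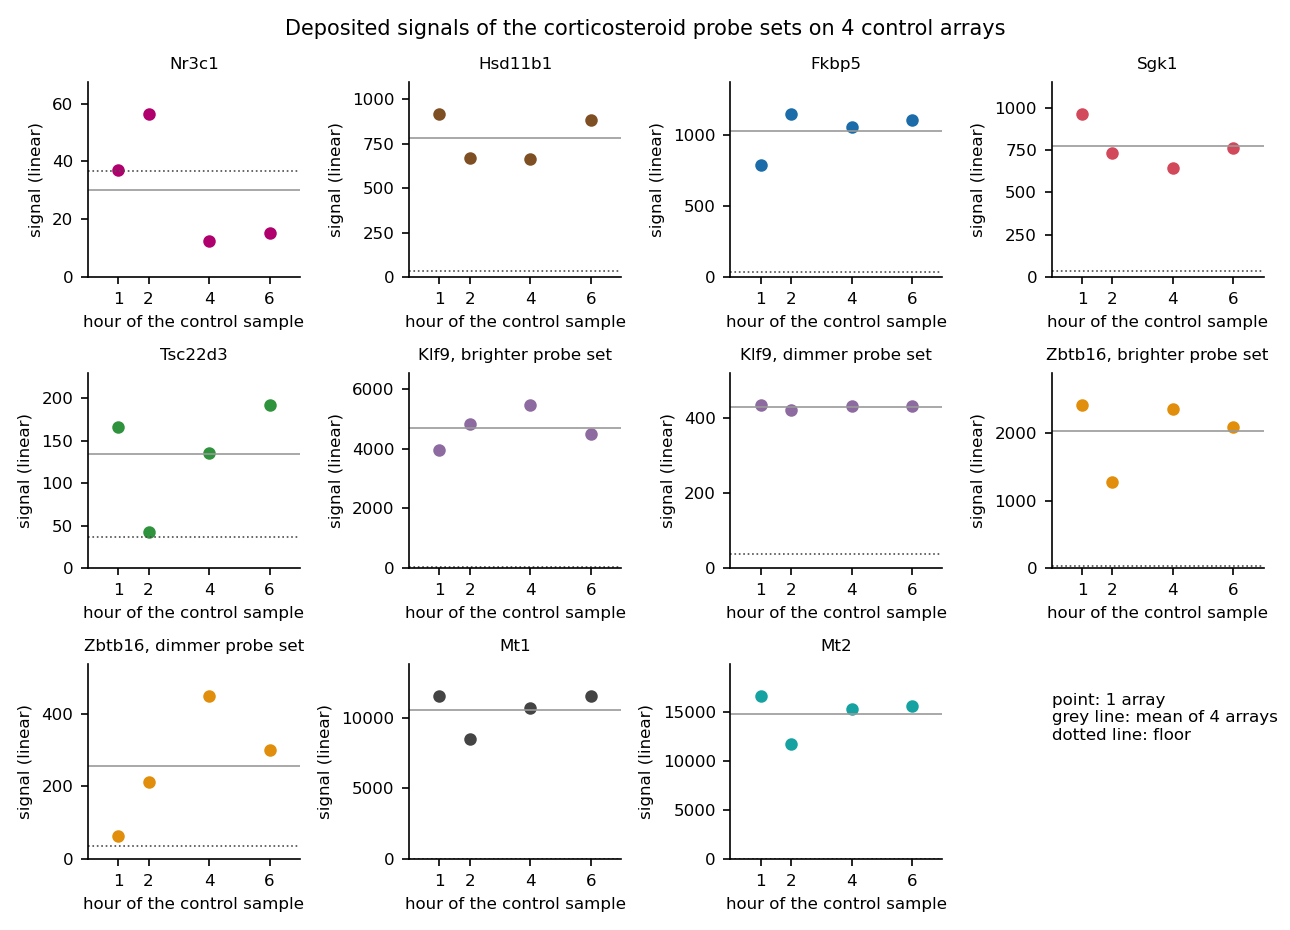
Each panel shows the deposited signal of 1 probe set (linear scale from 0) on the 4 control arrays, by the hour of the sample. Grey lines are means over the arrays and the dotted line is the floor of 36.8. Tsc22d3, the brighter Zbtb16 probe set, Mt1 and Mt2 are lowest at 2 h, Fkbp5 is lowest at 1 h, and Nr3c1 lies near or under the floor.

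Among the receptors, Nr3c1 gave almost no usable signal on this array type. Nr3c1 is the glucocorticoid receptor itself, a hormone-activated transcription factor. Its 1 probe set (98818_at) had signals of 37.2, 56.4, 12.4 and 15.1 at 1, 2, 4 and 6 h. The last pair lay under the floor of 36.8 and the 1 h value just above it, so the order of these arrays cannot be read. A dim probe set is a limit of this measurement and does not show that the transcript was scarce.

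Hsd11b1 regenerates active corticosterone from its inert form inside cells, and so sets how much hormone reaches the receptors. Its probe set (97867_at) had signals of 918, 673, 668 and 885 at 1, 2, 4 and 6 h. The 1 and 6 h arrays were high and the 2 and 4 h arrays low, with the highest signal 1.37 times the lowest. Among the 723 tested probe sets of like brightness (the same 10% band of mean signal), 57.8% had a range at least as wide. Its slope was 0.0049 ± 0.07 log2 per hour (SE, 4 arrays), with an adjusted p of 0.9996 by limma.

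Fkbp5 encodes a cochaperone that binds the receptor complex and lowers its affinity for hormone, a short feedback loop. Its probe set (94297_at) had signals of 787, 1146, 1058 and 1108 at 1, 2, 4 and 6 h. The 1 h array stood below the other arrays, at 0.71 times their median, while those lay within 1.1-fold of each other. At 2, 4 and 6 h the signal was 1.46, 1.34 and 1.41 times that at 1 h. Of 724 probe sets of like brightness, 40.2% had a range as wide as that of Fkbp5, 1.46-fold, and 3.59% lay as far below on the 1 h array.

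Sgk1 encodes a kinase that acts on ion channels and transporters and is induced by both corticosteroid receptors. Its probe set (97890_at) had signals of 963, 732, 645 and 763 at 1, 2, 4 and 6 h. The 1 h array was the highest, at 1.32 times the median of the others, so Sgk1 and Fkbp5 lay on opposite sides there. At 4 h the signal was 0.67 times that at 1 h. A range of 1.49-fold or wider was found in 41.2% of 723 probe sets of like brightness, and 10.9% lay as far above on the 1 h array.

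The Sgk1 gene also holds the 1 full palindrome found near the starts of the named genes. The motif, AGAACA and TGTTCT with 3 free bases between them, reads the same on both strands and was searched in windows from 250 bases before to 50 bases after each transcript start in RefSeq (GRCm38.p6). It was found in 3 of 32851 windows, 0.00913%, and in 1 of 15 windows of the named genes. That window is 1 of 6 alternative starts of Sgk1. The bases before the start are printed here because they hold the canonical motif, at -189 from the start; capitals mark the palindrome and a further half-site (AGAACA or its reverse complement TGTTCT) at -242.

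Sgk1, chr10:21993640-21993889, + strand: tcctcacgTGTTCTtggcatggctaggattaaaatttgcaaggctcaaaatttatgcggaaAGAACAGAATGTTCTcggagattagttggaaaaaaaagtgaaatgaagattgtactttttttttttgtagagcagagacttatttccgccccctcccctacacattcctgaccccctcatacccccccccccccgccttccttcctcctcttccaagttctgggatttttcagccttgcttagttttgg

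Half-sites alone are common letters, found in 19.0% of all windows on either strand, the palindromes included. They were present in 4 of the 15 windows of the named genes, 3 of Sgk1 and 1 of Tsc22d3. The windows of Fkbp5, Klf9, Hsd11b1, Nr3c2, Mt1 and Mt2 held no half-site. These counts describe letters only, and the arrays measured no binding. The promoter table used here had no entry for Nr3c1 or Zbtb16.

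Tsc22d3, also known as GILZ, is a leucine zipper protein that mediates anti-inflammatory actions of glucocorticoids. Its probe set (94212_at) had signals of 166, 42.9, 136 and 192 at 1, 2, 4 and 6 h. The 2 h array stood far below the others, at 0.26 times their median, and 1.52% of 724 probe sets of like brightness lay as far below there, while 17.1% had a range as wide. The 2 h signal was close to the floor, and the geometric mean of 116.8 was just above the limit of 116.4 for testing. With the floor at the 30th percentile the 2 h difference was -1.248 log2 in place of -1.95. The 1, 4 and 6 h signals lay much closer together, the 6 h one highest.

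Klf9 encodes a Krüppel-like transcription factor induced by glucocorticoids and thyroid hormone in neurons. Its brighter probe set (93528_s_at) had signals of 3952, 4844, 5466 and 4512 at 1, 2, 4 and 6 h. The 4 h array was the highest, at 1.21 times the median of the others, and the 1 h array the lowest. Its dimmer probe set (93527_at) gave 434, 421, 433 and 431, a CV of 1.43%. That was a range of 1.03-fold, where the median of 724 probe sets of like brightness was 1.55-fold. The pair therefore did not repeat each other: the 4 h signal was 1.38 times that at 1 h on the brighter and 0.997 times on the dimmer.

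Zbtb16, also known as PLZF, is a zinc finger repressor that glucocorticoids induce in many cell types. Its brighter probe set (92202_g_at) had signals of 2420.5, 1284, 2366 and 2097 at 1, 2, 4 and 6 h. The 2 h array was lowest, at 0.54 times the median of the others, and 2.76% of 724 probe sets of like brightness lay as far below there, while 12.0% had a range as wide. Its dimmer probe set (92201_at) had 64.6, 211, 448.5 and 299.6, so that the 1 h array was lowest and the 4 h array highest. The dimmer one spanned 6.94-fold, against a median of 1.73-fold in 724 probe sets of like brightness, of which 1.52% spanned as much, 0.552% lay as far below at 1 h and 1.38% as far above at 4 h.

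The probe sets of Zbtb16 thus put different arrays at the bottom. Against 1 h, the 2 h signal was 0.53 times on the brighter and 3.27 times on the dimmer. The slope of the dimmer one was 0.41 ± 0.16 log2 per hour (SE, 4 arrays), with an adjusted p of 0.9996 by limma. Without the 2 h array it was 0.48 ± 0.12, with an adjusted p of 0.0356 by limma. Without the 1 h array it was 0.13 ± 0.14 (adjusted p = 0.8377), without the 4 h array 0.35 ± 0.155 (adjusted p = 0.9998) and without the 6 h array 0.88 ± 0.23 (adjusted p = 0.9999), each by limma. The fit without the 2 h array has 1 residual degree of freedom and an infinite prior. A spread fitted over all probe sets by their mean signal therefore replaced each probe set's own. That fit called 32 probe sets in all. The brighter one had a slope of 0.04 ± 0.09, which turned to -0.04 without the 2 h array.

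**Figure D3:**
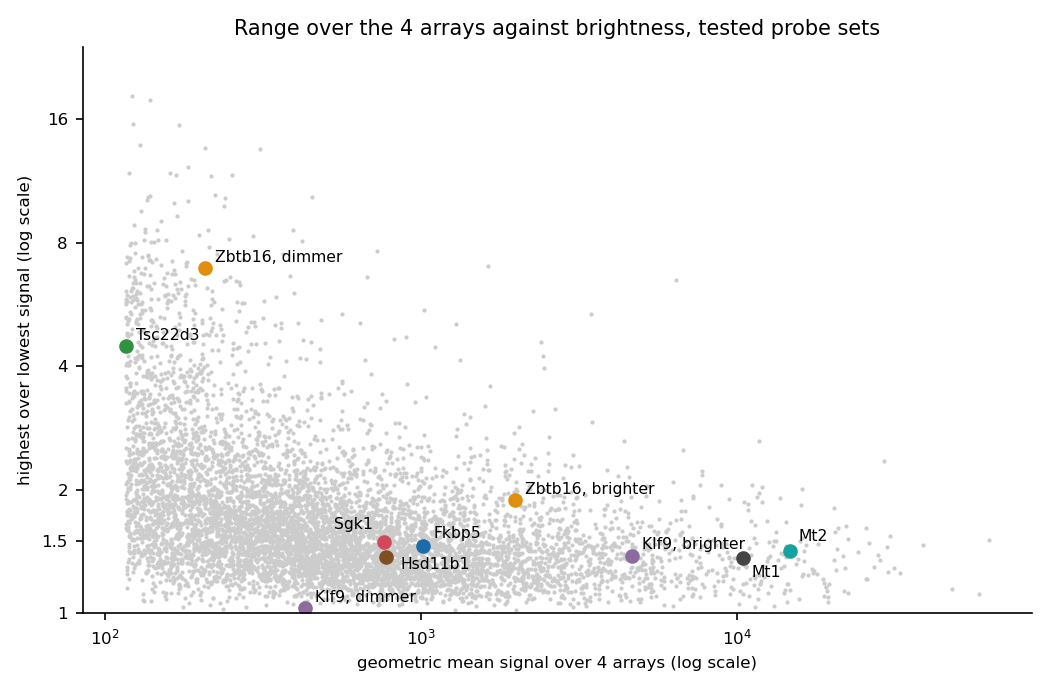
Each grey point is 1 of 7237 tested probe sets, by its geometric mean signal (log scale) and its highest over lowest signal on the 4 arrays (log scale). Coloured points are the 10 tested probe sets of the named genes. Most lie among probe sets of like brightness, while the dimmer Zbtb16 probe set (6.94-fold) and Tsc22d3 (4.48-fold) lie high and the dimmer Klf9 probe set (1.03-fold) lies at the bottom.

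Mt1 and Mt2 encode metallothioneins, small zinc-binding proteins of astrocytes and other cells that glucocorticoids, zinc and inflammation induce. The probe set of Mt1 (93573_at) had signals of 11517, 8462, 10700.2 and 11529.9 at 1, 2, 4 and 6 h. That of Mt2 (101561_at) had 16637, 11725, 15307 and 15650.3. In both the 2 h array was the lowest and the other arrays lay close together. The 2 h signal was 0.73 times the median of the others for Mt1 and 0.75 times for Mt2.

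Probe sets as bright as these were generally lower on the 2 h array. In the brightest 10% of tested probe sets, which hold both, the median difference at 2 h was -0.14 log2, against -0.44 for Mt1 and -0.42 for Mt2. Of the 723 probe sets there, 17.3% lay as low as Mt1 and 20.5% as low as Mt2. After quantile normalization, which gives all arrays 1 distribution, the differences were -0.31 and -0.33. Mt3, a brain metallothionein that hormone and metals induce little, had 24289.7, 19339, 27113 and 27260.4, and was also lowest at 2 h. The summed signal of 12 astrocyte markers was 66089 at 2 h and 61055 to 64069.7 on the other arrays. Gene by gene, 7 of the 12 were lower at 2 h and 5 higher, beside 53.1% and 46.9% of all tested genes. Their median was -0.05 log2. The astrocyte gene Gfap had 2165, 1740.4, 2354 and 2523 on its brighter probe set and 294, 309, 309.8 and 268 on its dimmer one, and the brighter stood at 0.74 times the other arrays at 2 h. The part of astrocytes in the metallothionein values was not tested.

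Mt1 and Mt2 are neighbours on chromosome 8, with 0 annotated genes between them. Metallothionein promoters carry short metal response elements, bound by the zinc sensor Mtf1, and these upstream sequences are printed because the pair gave the same order at 2 h. Capitals mark matches on either strand to the core letters TGCACNC or TGCGCNC, at -223, -128 and -50 from the start in Mt2 and at -23 in Mt1.

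Mt2, chr8:94172368-94172617, + strand: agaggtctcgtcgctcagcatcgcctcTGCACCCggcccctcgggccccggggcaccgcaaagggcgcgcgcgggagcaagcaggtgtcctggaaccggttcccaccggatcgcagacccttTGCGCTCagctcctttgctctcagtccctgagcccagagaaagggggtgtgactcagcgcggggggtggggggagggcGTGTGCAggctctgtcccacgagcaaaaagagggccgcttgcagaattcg
Mt1, chr8:94178839-94179088, + strand: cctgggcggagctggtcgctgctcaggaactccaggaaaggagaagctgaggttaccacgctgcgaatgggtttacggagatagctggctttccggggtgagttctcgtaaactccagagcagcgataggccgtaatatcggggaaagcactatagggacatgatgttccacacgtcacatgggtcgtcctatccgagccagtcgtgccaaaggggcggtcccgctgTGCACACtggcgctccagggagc

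Counting also the 50 bases after the start, Mt2 held 4 matches and Mt1 held 3. The added ones lay just past the start, at 4 in Mt2 and at 2 and 20 in Mt1. How many count as upstream thus depends on the start used. A match is frequent in such windows: 25.7% of all 32851 held at least 1, and 5 of the 15 of the named genes did.

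Other genes that glucocorticoids are known to induce did not move one way either. Of 46 such genes listed, 37 had a probe set and 30 were tested, and limma called 0 up and 0 down, with 2 at an unadjusted p under 0.05 beside 2.71% of all probe sets. Their median against the other arrays was -0.0056 log2 at 1 h, 0.05 at 2 h, -0.06 at 4 h and 0.0075 at 6 h. At 2 h 4 of 30 were at least 1.5-fold lower and 1 higher, where 10.4% of all tested genes were lower and 10.4% higher. At 1 h the counts were 2 lower and 1 higher, beside 8.26% and 4.65%. At 4 h they were 1 and 1, beside 6.74% and 5.95%, and at 6 h 1 and 1, beside 7.07% and 6.06%.

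Single genes of that list differed in which array was extreme. Per1, a clock gene with a response element of its own, had 269.8, 642, 407.5 and 389 at 1, 2, 4 and 6 h, highest on the array where Tsc22d3 was lowest. Gadd45g, a growth arrest gene, had 185, 344, 345.5 and 487, the 1 h array lowest and the 6 h array highest. Its slope was 0.23 ± 0.09 log2 per hour (SE, 4 arrays; adjusted p = 0.9996 by limma). Cdkn1a, the cell cycle inhibitor p21, went the other way, with 345, 399.7, 286 and 157 on its brighter probe set and a slope of -0.24 ± 0.09 (adjusted p = 0.9996 by limma). Nfkbia, the inhibitor of NF-kappaB that glucocorticoids induce, had 786.5, 724, 757 and 851 on its brighter probe set, and Dusp1, a MAP kinase phosphatase, had 809, 797, 709 and 692. Those last genes varied little, with no array standing apart.

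**Figure D4:**
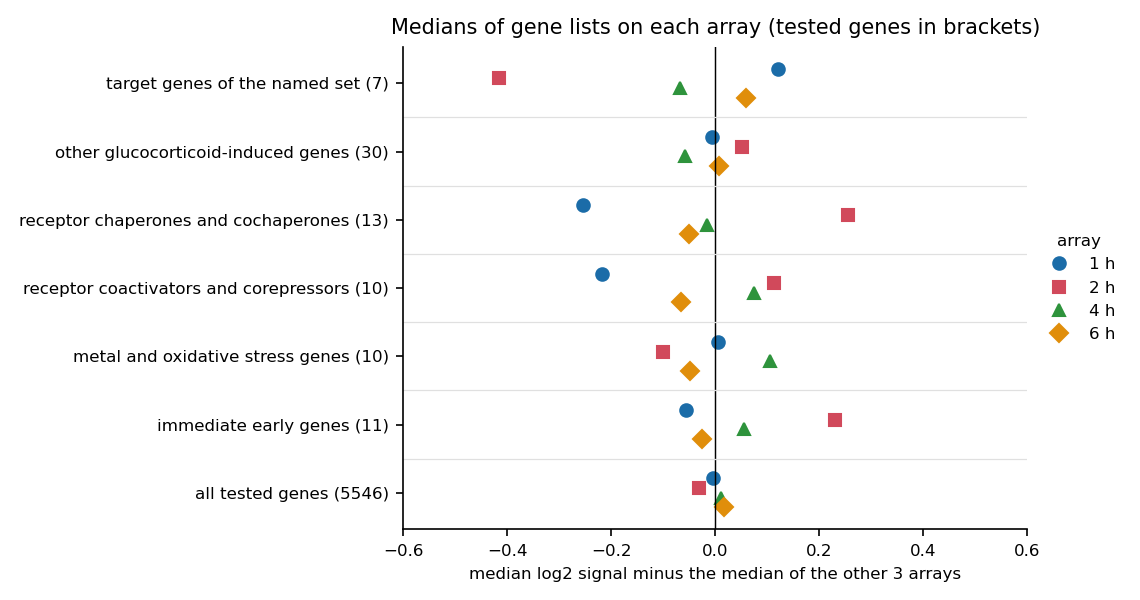
Each symbol is the median over the tested genes of 1 list on 1 array, as log2 signal minus the median of the other 3 arrays; symbols and colours mark the array. The 7 target genes have their lowest median at 2 h (-0.42), the 30 other glucocorticoid-induced genes stay within 0.06 of 0, and the 13 chaperone genes are highest at 2 h (0.26).

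Chaperones hold the receptors ready for hormone, and most of those tested lay above the other arrays at 2 h. Of 13 tested chaperone and cochaperone genes, 11 were higher at 2 h than the median of the other arrays, beside 46.9% of all tested genes, and 3 were at least 1.5-fold higher, beside 10.4% of all tested genes. These were Stip1, which passes clients from Hsp70 to Hsp90, with 217, 574, 265 and 255 at 1, 2, 4 and 6 h, Ppp5c, a phosphatase in the receptor complex, with 222, 508, 205 and 285, and Cdc37, a kinase cochaperone, with 783, 1854, 849 and 996. Fkbp4, which competes with Fkbp5 for the receptor, had 2672, 2620.0, 2481 and 2458 on its brighter probe set, without an array apart. Its dimmer one, also tested, had 621, 830, 454 and 710, highest at 2 h and lowest at 4 h. None of the 13 was called by limma, and their median was -0.26 at 1 h, 0.26 at 2 h, -0.02 at 4 h and -0.05 at 6 h. At 1 h 10 of the 13 were lower, beside 50.4% of all tested genes. Whether the spread of the 2 h array or its low 3' over 5' ratio of Gapdh had a part in these values was not tested.

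Coregulators, which carry the receptors' effect on transcription, were mixed. Of 10 tested, 6 were higher and 4 lower at 2 h, beside 46.9% and 53.1% of all tested genes. At least 1.5-fold higher were 2, and 2 were lower, beside 10.4% each way. Nrip1, a corepressor, had 832, 1415.5, 864 and 526 at 1, 2, 4 and 6 h, and Ppargc1a, a metabolic coactivator, had 124, 331, 208 and 155. Crebbp, the acetyltransferase CBP, had 1598, 714, 1375 and 1220.0, lowest at 2 h. Ncoa1, the steroid receptor coactivator SRC-1, had 353, 495, 364 and 537, while Ncoa2, with 73.5, 102, 41.8 and 127, was too dim to test.

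Genes that make, inactivate or transport corticosteroids were mostly dim. Of 15 listed, 9 had a probe set and 4 were tested. Brighter ones among the tested were Fdx1, with 1096, 921, 1046 and 797 at 1, 2, 4 and 6 h on its brighter probe set, and Cyp21a1, with 787, 984, 1037 and 803. Hsd11b2, which inactivates corticosterone in kidney and is scarce in adult hippocampus, had 26.9, 26.9, 26.2 and 31.8 on one probe set and 9.0, 37.7, 13.6 and 29.8 on the other, nearly all under the floor. Abcb1a, the efflux pump of the blood-brain barrier that keeps some corticosteroids out of brain, had 178, 46.3, 128 and 187. That is the order of arrays seen for Tsc22d3, with 2 h far below and 6 h highest. Endothelial markers summed to 989.9 at 2 h and 1299.6 to 1519 on the other arrays, over 7 genes, only 3 of them above the filter. Their part in the Abcb1a and Tsc22d3 values was not tested.

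Several marker lists differed on the 2 h array. The summed signal of 6 choroid plexus and ependyma markers at 2 h was 1.92 times the median of the other arrays, led by Ttr with 222, 892, 107.5 and 356. For astrocyte, oligodendrocyte, microglia, blood, neuron, dentate gyrus and CA1 pyramidal markers that ratio lay between 0.85 and 1.07, and for endothelial markers it was 0.72. Bright genes weigh most in a sum, and gene by gene the tested markers gave a different picture. At 2 h 3 of 3 dentate gyrus markers were lower than the median of the other arrays, 2 of them at least 1.5-fold, with a median of -0.68 log2. Of 7 oligodendrocyte markers 6 were higher, 2 at least 1.5-fold, with a median of 0.23. Of all tested genes 53.1% were lower at 2 h and 46.9% higher. At least 1.5-fold lower were 10.4%, and 10.4% were as much higher. The median was 0.70 over 4 choroid plexus and ependyma markers, -0.49 over 3 endothelial markers and -0.34 over 5 CA1 pyramidal markers. It was 0.25 over 8 microglia and 0.19 over 7 neuron markers. Their part in the values of the target genes was not tested. No marker list was at 0, and 1 dentate gyrus marker was under the floor on all arrays. In bulk tissue, fewer cells of a type and less RNA per cell cannot be told apart.

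Few genes of the hormone system that drives the adrenal axis were measured above the filter. Of 10 listed genes of the corticotropin-releasing hormone system, 6 had a probe set and 2 were tested. Pomc, the precursor of corticotropin, had 58.2, 258, 262 and 50.7 at 1, 2, 4 and 6 h. The 2 and 4 h arrays stood far above the others, but this probe set was dim. Its geometric mean of 118.9 was just above the filter. Of 724 probe sets of like brightness, 12.7% had a range as wide as that of Pomc. As far above lay 1.8% at 2 h and 0.414% at 4 h. Crhr1, the receptor for corticotropin-releasing hormone, had 98.9, 119, 146 and 206, highest at 6 h (slope 0.20 log2 per hour, adjusted p = 0.9996 by limma). Of 9 genes that aldosterone controls in kidney, 2 were tested. Nedd4l, a ubiquitin ligase that Sgk1 phosphorylates, had 1308.5, 1061, 1218 and 1247 on its brighter probe set, lowest at 2 h. Its dimmer one had 572, 761, 512.5 and 575, highest at 2 h. The sodium pump subunit Atp1b1 had 1937, 1761, 2092 and 1878 on its brighter probe set, highest at 4 h. Its dimmer one, too dim to test, had 158.6, 143.4, 23.3 and 149.6, lowest at 4 h.

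Genes of metal and oxidative stress, which share induction of Mt1 and Mt2, had medians of 0.0050 at 1 h, -0.10 at 2 h, 0.11 at 4 h and -0.05 at 6 h over 10 tested. At 2 h 2 were at least 1.5-fold lower and 0 higher, beside 10.4% each way. They were Gclc, which makes glutathione, with 708.5, 394, 728.5 and 550.5 at 1, 2, 4 and 6 h, and the superoxide dismutase Sod1, with 8478, 4785, 6849 and 8043. Catalase, Cat, had 750.2, 1112, 876 and 586 on its brighter probe set and 166, 26.5, 118 and 177 on its dimmer one, so its probe sets put opposite values on the 2 h array.

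Immediate early genes, which handling and novelty also induce, had medians of -0.06, 0.23, 0.06 and -0.03 at 1, 2, 4 and 6 h over 11 tested genes. At 2 h 7 were higher and 4 lower, beside 46.9% and 53.1% of all tested genes, and at 6 h 3 were at least 1.5-fold lower, beside 7.07%, and 1 higher, beside 6.06%. At 2 h 3 were at least 1.5-fold higher, beside 10.4%, and 0 lower. Fos had 291.5, 574, 412.5 and 271 and Nr4a2 had 426, 1123, 406 and 274, each on its brighter probe set. The third, Egr2, had 184, 419, 191.5 and 108. The dimmer Fos probe set, too dim to test, had 74.7, 52.8, 135.6 and 54.6, lowest at 2 h and highest at 4 h. Egr1 had 2055, 2499.8, 1716 and 2019.5 on its brighter probe set. Limma called 0 of the 11.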

How the data were processed

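Total RNA of 4 control samples, 1 per hour, was read on Affymetrix arrays. The authors deposited 1 intensity per probe set on a linear scale, made with software that the labels do not name. After removal of 2% of values at each end the array means differed by 0.00199%, so the deposited values appear scaled to one mean and were used as they stand (scaling was set to apply above 10%). No detection calls were used. Of 12488 probe sets, 66 are controls. Symbols were updated by gene identifier for 10817 of 10833 probe sets with 1 symbol, while 396 had several and 1193 none. Sequences are RefSeq's (GRCm38.p6); gene coordinates are not given, as the values carry no build.

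Signals were floored at the 20th percentile and logged. Slopes were fitted with limma 3.58.1 (R 4.3.3) on all 7237 probe sets above the 40th percentile, with a mean-dependent prior, two-sided. Arrays were compared without a test, against the median of the other 3 and against 1 h, and counted past 1.5-fold. A dim probe set has less reliable differences, and the number of arrays limits all precision. Steps were tested on simulated data. Named are all probe sets of the 10 genes, a fixed set of further genes, and in each pathway list the 3 tested genes with the widest range. Dimmer probe sets of those further genes are given for some and left out for others. The members and lists were chosen with earlier results of these data known. Alternatives covered normalization, floor, filter, fold threshold, reference, probe set choice, time scale, prior and leaving out each array. Figures were drawn with matplotlib 3.10.9 and tables made with pandas 2.3.3 in Python 3.11.15.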

Additional observations from a re-analysis of the deposited data

How the results depend on the processing

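The count of called slopes was 0 under quantile normalization, median centring, both floors, both filters, both time scales and the plain prior. Leaving out 1 array gave 0 to 32 calls, 32 without the 2 h array, and 0 to 1 among the named genes.

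Counts of target probe sets past 1.5-fold are small and moved with several settings. The share of all tested probe sets under the other settings is not given here, so the counts below have no background beside them. A threshold under 1.5-fold, called the lower threshold here, lets more probe sets of any kind pass. Counts at that threshold therefore cannot show that the target genes moved together. Against the other arrays, those lower at 2 h fell from 2 to 1 after quantile normalization, with the 60th percentile filter and at 2-fold, and were 5 at a lower fold threshold; leaving out 1 array gave 1 to 2, with Tsc22d3 under the filter in each case. Those higher at 2 h were 0 to 1 when 1 array was left out. At the lower threshold, 1 was higher and 2 were lower at 1 h, and 2 were higher at 6 h. With the mean of the other arrays as reference, 1 was higher at 1 h and 2 at 6 h, and those higher at 6 h were 0 to 1 when 1 array was left out. The 60th percentile filter removed the dimmer Zbtb16 probe set and left 0 lower at 1 h and 0 higher at 4 h. Against 1 h, 1 target probe set was higher at 2 h and 2 were lower, 1 was higher and 0 lower at 4 h, and 1 was higher and 0 lower at 6 h. The 60th percentile filter left 0 higher at each hour. At the lower threshold, 2, 3 and 2 were higher at 2, 4 and 6 h and 5, 1 and 1 lower. Set against 6 h instead, 0 were higher at 2 and 4 h. At 2 h the lower count was 1 after quantile normalization, with the 60th percentile filter, at 2-fold and with a gene's probe sets averaged, the last leaving 0 higher. Median centring gave 1 lower at 4 h.

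Slopes near 0 changed sign, in log2 per hour unless a scale is named. That of Hsd11b1 was -0.016 after median centring, -0.042 per log2 hour and -0.017 per rank, and from -0.13 (without 6 h) to 0.099 (without 1 h) when 1 array was left out. Leaving out 1 array gave -0.012 to 0.11 for Fkbp5, -0.18 to 0.015 for Sgk1 and -0.026 to 0.15 for the brighter Klf9 probe set, each turning sign without 1 h. The dimmer Klf9 probe set gave -0.00022 after quantile normalization, -0.019 after median centring and -0.0023 to 0.0085 with 1 array left out. With 1 array left out the brighter Zbtb16 gave -0.039 to 0.18, Mt1 -0.0062 to 0.11 and Mt2 -0.019 to 0.10. Mt2 gave -0.00064 after median centring. The dimmer Zbtb16 at 2 h was -0.51 against 6 h, in place of 1.71 against 1 h. The cause of these changes was not tested. The medians of the target genes against the other arrays stayed within 1 SD of their values over the arrays under each planned setting. That SD includes the low 2 h median itself, so it is a loose limit and no measure of error. With the same 7 genes kept, an alternative chosen after seeing the data, leaving out 1 array gave 0.05 to 0.31 at 1 h, -0.45 to -0.39 at 2 h, -0.08 to 0.18 at 4 h and -0.03 to 0.22 at 6 h; the value without 1 h moved the 4 h median by over 1 SD. The 4 h median was 0.08 with the mean of the other arrays as reference, and the 6 h one against 1 h turned from 0.0016 to -0.14 after median centring.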
